A study of Mus musculus with 66 samples.

Results

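The myogenic transcription factors Myod1, Myf5, Myog, Mef2a, Mef2c, Mef2d, Six4, Pax7 and Tcf12 were taken by name, and the values of these 9 genes are given here across the knock-downs. All 9 were among the 15856 genes with a listed poly(A) (pA) site in 3'READS, and 4 of them (Myf5, Mef2c, Pax7 and Tcf12) were among the 9999 genes counted by RNA-seq. Genes averaging 10 or more reads per library were taken as measured, which left 7 of the 9 in 3'READS and 3 of the 4 in RNA-seq. Myod1 had 22 reads over the 7 3'READS libraries together and Pax7 had 14, and Mef2c had 53 reads over the 7 RNA-seq libraries, so these were not measured in those assays.

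Both assays were run on C2C12 myoblasts, an established mouse line of muscle precursors, 48 h after transfection with 50 nM of siRNA. The siRNA was a control (siCtrl) or targeted Paf1 (siPaf1), Cdc73 (siCdc73) or Ski8 (siSki8, listed in the tables as Wdr61), 3 subunits of the Paf1 complex (Paf1C), which travels with RNA polymerase II during transcription. The siCtrl, siPaf1 and siCdc73 groups had 2 libraries per assay, 1 in batch 1 and 1 in batch 2, and siSki8 had 1 library, in batch 2. All groups were the same line, carried no deletion and were kept as undifferentiated myoblasts according to the labels, which do not say that batches were separate cultures, so p-values measure only the spread between these libraries.

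The targeted genes checked the labels: with the batch as a block, Paf1 differed from siCtrl by -2.55 in 3'READS and -2.36 in RNA-seq after siPaf1, Cdc73 by -1.96 and -2.54 after siCdc73, and Wdr61 by -3.48 and -4.09 after siSki8 (log2, edgeR). Paf1 itself was higher after siCdc73, by 1.07 in 3'READS and 1.34 in RNA-seq. Libraries held 2796693 to 8160386 gene reads in RNA-seq and 5302728 to 14340927 reads at pA sites in 3'READS. The 3'READS library of siPaf1 in batch 2 stood apart, with 209 genes of at least 50 reads more than 20-fold above every other library, against 0 such genes in each of the other libraries, and 0 of the 209 were among the myogenic factors. Of 7 myoblast markers, Des, which encodes desmin, was the most read, with a mean of 10487 3'READS reads per library. All 7 listed markers of other cell types had a mean under 10. Myotube markers were also read, with means from 1.57 for Myh8 to 1382 for Mylpf. These markers alone do not separate myoblasts from differentiating cells. Myod1, normally a defining gene of this lineage, was at 0 to 8 reads per 3'READS library and is not among the genes of the RNA-seq table.

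The factors act in layers. Pax7 marks muscle precursors, Six4 is a homeobox factor upstream of the myogenic regulatory factors (MRFs), Myf5 and Myod1 are the MRFs of proliferating myoblasts, and Myog (myogenin) is the MRF of differentiation. MRFs bind DNA as dimers with E proteins such as the product of Tcf12 (HEB), and the MEF2 proteins, including those of Mef2a, Mef2c and Mef2d, are bound at many of the same muscle genes.

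3'READS reports the site at which each transcript was cleaved and polyadenylated, and cleavage is guided by a hexamer, usually AATAAA or its variant ATTAAA, a short way upstream. The windows below are 30 bases long, from 36 to 7 bases upstream of the site on the gene's strand in mm9, with either hexamer in capitals. The first 5 are the most used site of each of 5 factors, and the last 3 are further Six4 sites, shown because Six4 changed most and all its reads came from sites the deposited table places upstream of a 3'-most exon.
Myf5, chr10:106919974-106920003: aaatgtactattattatcAATAAAatattt
Myog, chr1:136189089-136189118: ccttttttaaaaaatgAATAAAgactggtt
Mef2d, chr3:87972693-87972722: gttacatttgtgtataattatattattatt
Tcf12, chr9:71692091-71692120: atttatgtagcAATAAAtgtgccatccttt
Six4 in intron 1, chr12:74210791-74210820: gaaaacacagtATTAAAgtgctttcagttg
Six4 in intron 2, chr12:74208805-74208834: aaaggtcaacctgcAATAAAgtcagggttt
Six4 in exon 3, chr12:74204057-74204086: atttaggagATTAAAtaatagctccaggct
Six4 in exon 3, chr12:74202889-74202918: caaccacttaaAATAAAaaatatatatgta
The window of the main Mef2d site held neither hexamer, and the other 7 printed windows held 1. The main sites of the other measured factors, Mef2a and Mef2c, are not printed, and their windows also held neither. In a wider set of 27 sites of the factors, which includes the printed ones, 15 held either hexamer. The printed windows therefore do not give the share for the factors. Over the 56283 sense sites of all genes with a full window, AATAAA was present in 42.4%, ATTAAA in 16.3% and either in 57.4% on the gene's strand, against 3.84% and 3.73% for each on the opposite strand, and 2.89% for either in a window 100 bases further upstream. A match describes the letters only.

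The 9 factors had 54 listed sites with 10836 reads in all. Of these, 27 sites with 10409 reads were in the 3'-most exon, 16 with 299 reads were in introns, 3 with 82 reads were in an internal exon, and 8 with 46 reads were upstream antisense. Tcf12 was the most read factor, with 7462 reads in 3'READS. Per length, in the deposited RPKM of the siCtrl libraries, Myf5 was at 28.2 and 31.4, Tcf12 at 27.0 and 18.2, and Pax7 at 12.6 and 1.48, against a median of 15.6 over the 5969 genes that averaged 10 reads or more.

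Six4, Mef2d and Mef2a were higher and Myog was lower after siCdc73 in 3'READS, and Six4 was higher after siPaf1, once the batch was a term in the fit. Without a batch term edgeR called 0 of the 7 measured factors at an adjusted p under 0.05 in each comparison, as it called 0 of 12579 genes, although 1703 genes after siPaf1, 1929 after siCdc73 and 419 after siSki8 had an unadjusted p under 0.05. At that unadjusted level stood 1 factor after siPaf1 (Six4), 4 after siCdc73 (Six4, Mef2d, Mef2a and Myog) and 1 after siSki8 (Mef2d). DESeq2 without the batch called Six4 after siPaf1 and both Six4 and Mef2d after siCdc73, where it called 3.92% and 5.67% of genes, and 0 genes after siSki8. With the batch given in the labels as a block, 4 of 7 factors were called after siCdc73, where 22.5% of all genes were, 1 of 7 after siPaf1, where 18.8% were, and 0 of 7 after siSki8, where 0.151% were. Six4 is in both nonzero counts, although neither siCtrl library passed the low-count filter for it (0.900 and 1.04 CPM, filter 1.21). It entered the test through the siSki8 library, at 1.25 CPM, and the siPaf1 and siCdc73 libraries, in which it was high. Its calls are limited by this. The median difference of the 7 factors was 0.47 after siCdc73, -0.11 after siPaf1 and 0.05 after siSki8, against -0.02, 0.08 and -0.06 over all genes (log2). The 3 knock-downs share their siCtrl libraries, so their values are given side by side and are not independent. In bulk libraries, less RNA per cell and fewer cells expressing a gene cannot be told apart.

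**Figure D1:**
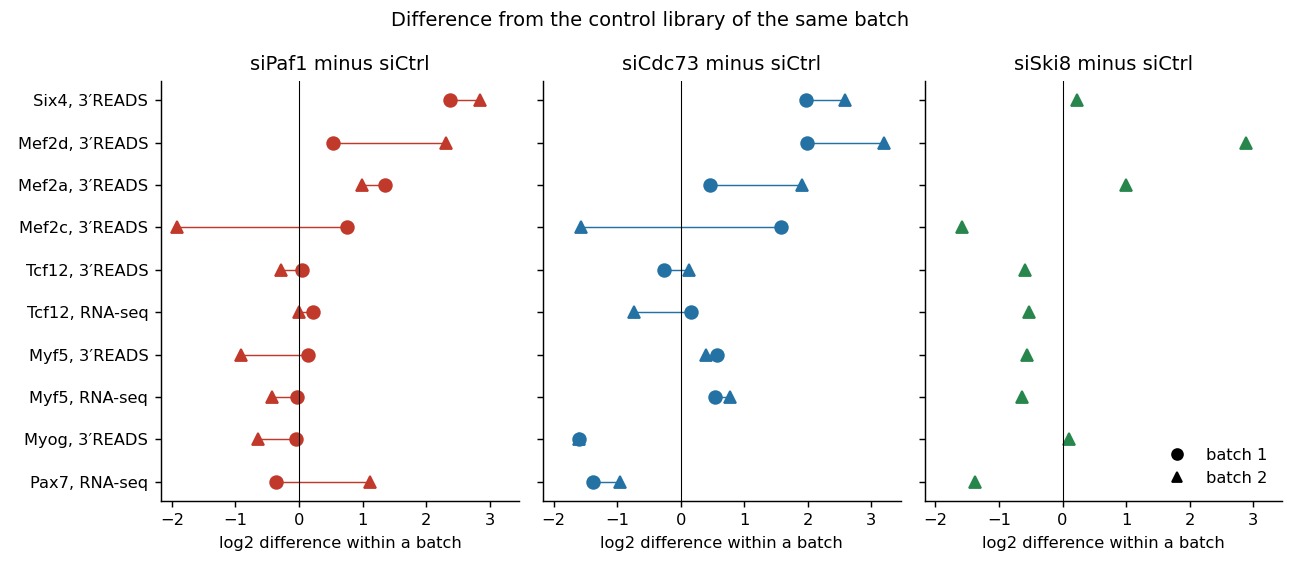
Difference of each knock-down library from the siCtrl library of its own batch, in log2, for each measured factor (circles batch 1, triangles batch 2, lines join the 2 batches). Six4 lies at 1.97 or more in all 4 siPaf1 and siCdc73 libraries, and Mef2c lies on opposite sides of 0 in the 2 batches after both knock-downs.

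Among the MRFs, Myog (chr1:136186581-136189124, forward strand) differed between knock-downs. Myog had 7.05 and 13.1 CPM (counts scaled to the library total after TMM) in siCtrl, 6.84 and 8.33 in siPaf1, 2.17 and 4.19 in siCdc73, and 14.1 in siSki8 (batch 1 first). Both siCdc73 libraries lay below all 5 others, and the siSki8 library was the highest. Within a batch, siCdc73 was lower than siCtrl by the same amount in each, at -1.61 and -1.60 on the log2 scale. With the block, Myog fell by 1.58 (SE 0.405) on the log2 scale after siCdc73, with an adjusted p of 0.00886 against 0.244 without the block. The siPaf1 and siSki8 differences from siCtrl were -0.36 (SE 0.374) and 0.20 (SE 0.466), neither called. The direct comparison put Myog 1.22 (SE 0.407) higher in siPaf1 than in siCdc73, with adjusted p of 0.0473 under the block and 0.498 without it, and 14.4% of genes were called in it with the block. Leaving out the siCtrl library of batch 2 ended the siCdc73 call (-1.38, adjusted p 0.129). Leaving out either siCdc73 library or the siPaf1 library of batch 1 ended the direct one, with 1.10, 1.43 and 0.96 in its place and adjusted p of 0.175, 0.185 and 0.141.

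The Myog difference rested on 1 pA site, since Myog had a single listed site, 1 base beyond its annotated end, with 10 and 59 reads in siCdc73 against 47 and 139 in siCtrl. Over the 8311 genes compared, Filip1l and R3hdm1 had the 3'READS profiles nearest to that of Myog over the 7 libraries. Their root mean square differences were 0.136 and 0.137 in log2 CPM after centring, where the median gene was at 0.984. Being picked as the smallest distances, they lie below the median by selection, and a link to Myog was not tested.

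Myf5 (chr10:106919964-106923190, reverse strand) was read by both assays. In RNA-seq it had 53.8 and 63.4 CPM in siCtrl, 52.8 and 47.1 in siPaf1, 78.3 and 109 in siCdc73, and 40.5 in siSki8. Both siCdc73 libraries lay above the other 5, and the siPaf1 libraries lay below both siCtrl libraries, by 0.03 and 0.43 on the log2 scale within batches. Of the 3 factors measured by RNA-seq, 2 were called after siCdc73 with the block, Myf5 and Pax7, where 39.9% of genes were called. 0 were called after siPaf1, where 32.5% of genes were, and 1, Pax7, after siSki8, where 5.43% were. Without the block edgeR called 0 of the 3 and 0 of 6521 genes in each, with 1156, 1377 and 361 genes at an unadjusted p under 0.05 after siPaf1, siCdc73 and siSki8, but 0 of the 3 factors, and DESeq2 called 5.98%, 8.36% and 0.0767% of genes, also without any of the 3.

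Myf5 rose by 0.66 (SE 0.250) on the log2 scale after siCdc73 in RNA-seq, with adjusted p of 0.0341 under the block and 0.318 without it. It was 0.87 (SE 0.255) lower in siPaf1 than in siCdc73, with adjusted p of 0.0114 under the block and 0.353 without it, where 28.2% of genes were called with the block. The siCdc73 call did not hold without any 1 of its 4 libraries: the difference was then 0.44 to 0.89, with adjusted p of 0.0657 without the siCdc73 library of batch 1, 0.453 without that of batch 2, and 0.181 and 0.172 without the siCtrl library of batch 1 and of batch 2. The direct comparison did not hold without batch 2 of siCdc73 or of siPaf1, at -0.66 (adjusted p 0.289) and -0.63 (adjusted p 0.0812).

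In 3'READS, Myf5 stood at 7.95 and 27.8 CPM in siCtrl, 8.78 and 14.6 in siPaf1, 11.9 and 36.8 in siCdc73, and 18.8 in siSki8. The 2 siCtrl libraries spanned a wider range than any knock-down moved it, with batch 2 above batch 1 by 1.78 on the log2 scale. Within batches the siCdc73 library was again above siCtrl, by 0.57 and 0.40, but the fitted 0.47 (SE 0.334) was not called with the block (adjusted p 0.33). The genes nearest to Myf5 in profile, again picked as the smallest distances, were Ndufa4 and Gmds, at 0.111 and 0.134 where the median was 0.913.

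Most Myf5 reads ended at 1 site, 3 bases before the annotated end in the 3'UTR of exon 3. That site took 53 of 53 and 294 of 294 reads in siCtrl, 65 of 68 and 186 of 221 in siPaf1, 52 of 55 and 519 of 519 in siCdc73, and 163 of 165 in siSki8. A further site in the same exon, 956 bases before the annotated end and with neither hexamer in its window, had 3 and 20 reads in siPaf1 and none in the other 5 libraries. A test of site usage, chosen after the data were seen, called the main site as less used after siPaf1 (adjusted p 0.000231 with the block, where 7.49% of sites were called) and less used in siPaf1 than in siCdc73 (adjusted p 0.0131, where 2.23% were). Without the block neither passed, with adjusted p of 0.566 and 1, where 0.0106% and 0 of sites were called. In siPaf1 the reads away from the main site numbered 3 in batch 1 and 35 in batch 2, the library that stood apart.

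**Figure D2:**
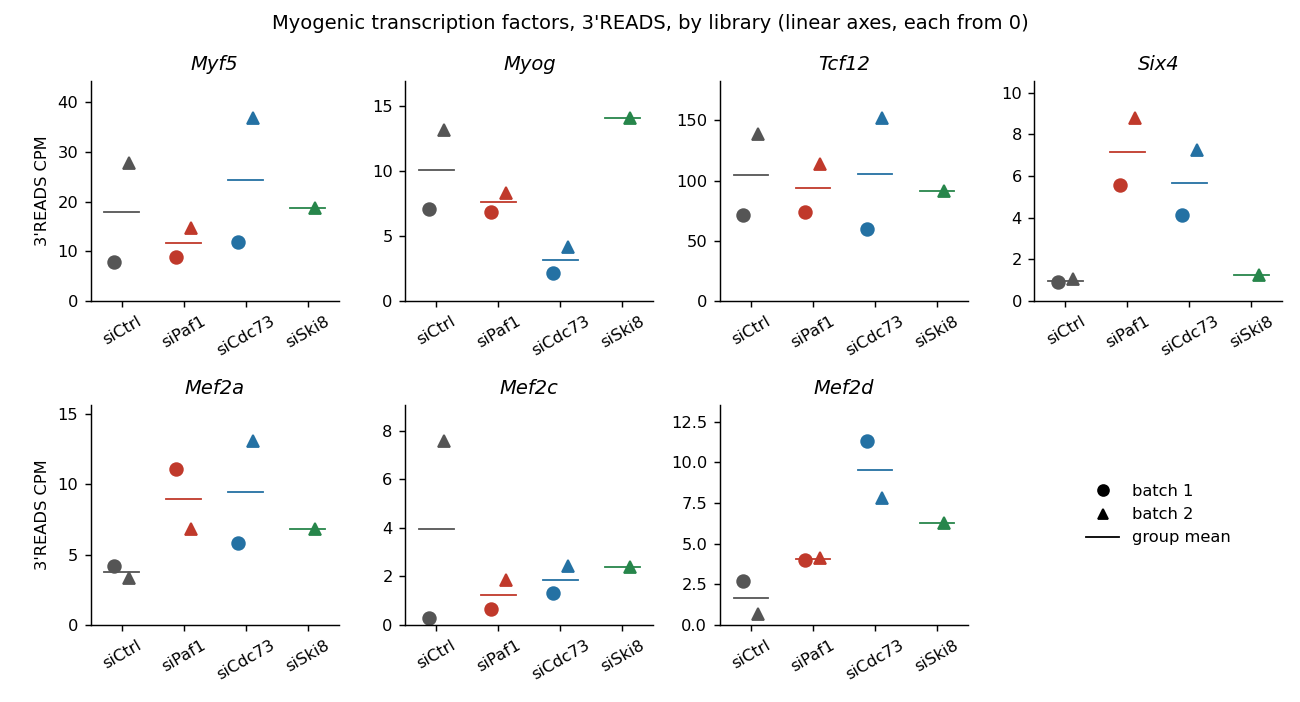
3'READS level of each of the 7 measured factors by library, in CPM on linear axes that start at 0 (circles batch 1, triangles batch 2, bars group means). The siPaf1 and siCdc73 libraries lie above siCtrl for Six4 and Mef2a, and both siCdc73 libraries lie below all others for Myog.

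Tcf12 (chr9:71692059-71959626, reverse strand), the E protein gene, showed no called difference in either assay. It had 71.6 and 138 CPM in siCtrl, 73.8 and 114 in siPaf1, 59.5 and 152 in siCdc73, and 91.6 in siSki8 in 3'READS. The groups overlapped and batch 2 was the higher in each. With the block its differences were -0.11 (SE 0.277) after siPaf1, -0.05 (SE 0.278) after siCdc73 and -0.61 (SE 0.364) after siSki8. In RNA-seq it stood at 142 and 101 CPM in siCtrl, 165 and 101 in siPaf1, 159 and 61.0 in siCdc73, and 70.3 in siSki8, here with batch 1 the higher in each group, and the differences were 0.09 (SE 0.247), -0.25 (SE 0.249) and -0.35 (SE 0.319), none called.

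Tcf12 was cleaved at 4 sites, of which 3 lay in its last exon (exon 21) and the most downstream lay 19 bases beyond the annotated end. The shares of the 2 most downstream sites separated batch 1 from batch 2 in every group with both. The third site from the upstream end took 30.6% of reads in siCtrl, 27.6% in siPaf1 and 35.4% in siCdc73 in batch 1, but 62.1%, 61.1% and 54.9% in batch 2, where siSki8 had 59.4%. The most downstream site went the other way, from 41.1%, 39.0% and 24.1% in batch 1 to 12.8%, 13.1%, 12.5% and, for siSki8, 16.3% in batch 2. The first site took 4.82% and 2.66% in siCtrl and 8.74% and 6.84% in siPaf1, so siPaf1 was above siCtrl in both batches, with a difference of 1.15 (SE 0.506) in log2 usage that was not called (adjusted p 0.150 with the block). The second site took 23.5% and 22.5% in siCtrl, 24.7% and 18.9% in siPaf1, 35.4% and 27.1% in siCdc73, and 20.5% in siSki8. It was thus above siCtrl in both siCdc73 libraries, by 0.58 (SE 0.469) in log2 usage, which was not called (adjusted p 0.583 with the block).

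**Figure D3:**
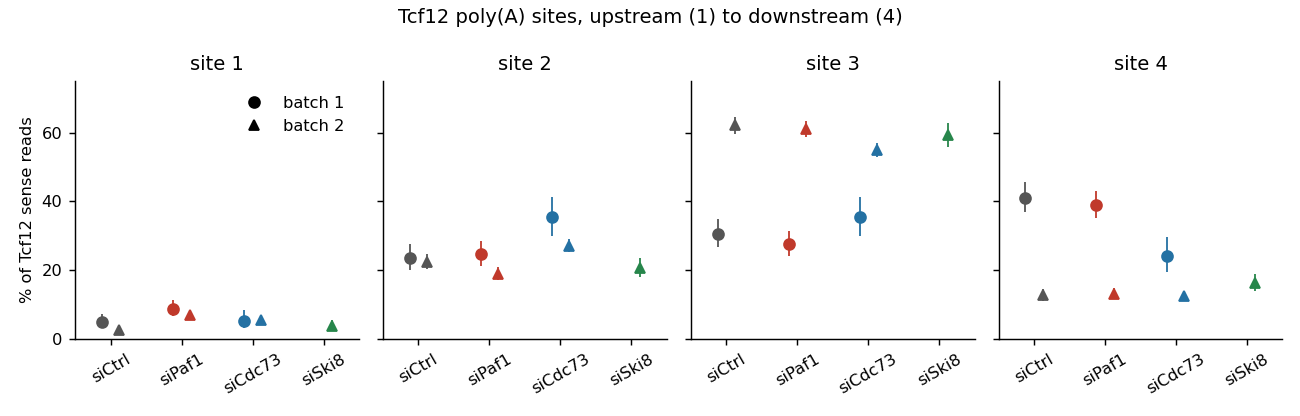
Share of Tcf12 sense reads at each of its 4 pA sites, in percent by library, from the most upstream (1) to the most downstream (4), with 95% Wilson intervals that cover counting error only. Sites 3 and 4 separate batch 1 from batch 2 in every group with both, while site 1 is higher in siPaf1 than in siCtrl in each batch.

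For 3'UTR-APA, the balance between the 2 most used sites of the 3'-most exon, 3 factors could be tested. The pairs lay 97 bases apart in Tcf12, 47 in Mef2a and 735 in Mef2c. The proximal site took 43.4% and 26.6% of the Tcf12 pair in siCtrl, 47.2% and 23.6% in siPaf1, 50% and 33.0% in siCdc73, and 25.7% in siSki8, so both siCdc73 libraries were above the siCtrl library of their batch. The log2 shift toward the proximal site was 0.42 (SE 0.471) after siCdc73 and -0.01 (SE 0.468) after siPaf1 with the block. In Mef2a the proximal share after siPaf1 was 7.46% in batch 1 and 59.4% in batch 2, on either side of the siCtrl values of 26.3% and 38.9%. edgeR called 0 of the 3 after each knock-down and between siPaf1 and siCdc73, with or without the block, and 0 had an unadjusted p under 0.05. Over 4567 genes it called 6.79% after siPaf1, 4.29% after siCdc73, 0.307% after siSki8 and 2.08% between siPaf1 and siCdc73 with the block, and 0 without it, with 229, 192, 58 and 122 genes at an unadjusted p under 0.05.

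For CDS-APA, the balance of intron and internal exon sites against those of the 3'-most exon, no factor met the minimum share of 5% for an upstream site together with a site in the 3'-most exon. With no minimum share, Mef2a, Mef2c and Mef2d could be tested and edgeR called 0 of them after each knock-down, where it called 7.79% of genes after siPaf1, 9.95% after siCdc73 and 0 after siSki8 with the block, and 0.689%, 0.827% and 0 without it. With the block, Mef2a and Mef2d after siPaf1 were the only ones under an unadjusted p of 0.05 (0.0405 and 0.0299, adjusted 0.213 and 0.181), and both were toward the 3'-most exon. Without the block only Mef2d after siPaf1 was (0.0416, adjusted 0.472). Their intron sites took 7 and 3 reads in siCtrl and 3 and 1 in siPaf1 for Mef2a, and 6 and 0 in siCtrl and 0 and 0 in siPaf1 for Mef2d.

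Of the MEF2 genes, Mef2d (chr3:87946294-87976008, forward strand) showed the widest difference. It had 2.70 and 0.662 CPM in siCtrl, 4.00 and 4.10 in siPaf1, 11.3 and 7.81 in siCdc73, and 6.26 in siSki8. Both siCtrl libraries lay below all 5 knock-down libraries, and both siCdc73 libraries lay above all others. Mef2d rose by 2.49 (SE 0.541) on the log2 scale after siCdc73, with adjusted p of 0.0027 under the block and 0.195 without it. With the block the siCdc73 call held without each of its 4 libraries in turn, at 1.85 to 3.35. The siPaf1 difference of 1.36 (SE 0.548) and the siSki8 difference of 2.23 (SE 0.670) were not called with the block (adjusted p 0.0676 and 0.154). Without the siCtrl library of batch 1 they were, at 2.19 (adjusted p 0.0164) and 2.91 (adjusted p 0.0257), and the siPaf1 difference also passed without the siPaf1 library of batch 1, at 1.85 (adjusted p 0.0125). The siCtrl values rest on 18 and 7 reads, and nearly all reads after the knock-downs were at 1 site of the last exon, with 12 and 7 in siCtrl, 28 and 62 in siPaf1, 46 and 107 in siCdc73, and 52 in siSki8. Mef2d passed the low-count filter of 1.21 CPM in every library but the siCtrl one of batch 2.

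Mef2a (chr7:74376049-74517744, reverse strand) had 4.20 and 3.31 CPM in siCtrl, 11.1 and 6.81 in siPaf1, 5.86 and 13.1 in siCdc73, and 6.83 in siSki8. Both siCtrl libraries were again below all 5 others. Mef2a rose by 1.34 (SE 0.473) on the log2 scale after siCdc73, with adjusted p of 0.0453 under the block and 0.318 without it, and the call did not hold without the siCdc73 or the siCtrl library of batch 2, at 0.34 (adjusted p 0.798) and 1.05 (adjusted p 0.293), nor in DESeq2 with the block (1.38, adjusted p 0.122). The siPaf1 difference of 1.21 (SE 0.465) had an adjusted p of 0.071 with the block. It passed without the siPaf1 library of batch 2, at 1.75 (adjusted p 0.00684).

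Mef2c (chr13:83643033-83806684, forward strand) had 0.300 and 7.56 CPM in siCtrl, 0.645 and 1.85 in siPaf1, 1.30 and 2.41 in siCdc73, and 2.39 in siSki8. The siCtrl libraries were the lowest and the highest of all 7, so no difference exceeded their spread. Within batch 1 both knock-downs were above siCtrl, by 0.75 and 1.57, and within batch 2 both were below it, by -1.92 and -1.57. Mef2c had 2 reads in the siCtrl library of batch 1 and passed the low-count filter only in batch 2.

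Six4 (chr12:74201246-74214401, reverse strand) showed the widest difference that appeared after both siPaf1 and siCdc73. It had 0.900 and 1.04 CPM in siCtrl and 1.25 in siSki8, against 5.55 and 8.80 in siPaf1 and 4.13 and 7.24 in siCdc73. The siCtrl and siSki8 libraries lay together below the other 4, and the siPaf1 and siCdc73 ranges overlapped. Six4 rose by 2.65 (SE 0.539) on the log2 scale after siPaf1, with adjusted p of 0.00177 under the block and 0.194 without it, and by 2.32 (SE 0.548) after siCdc73, with 0.00386 and 0.162. After siSki8 the difference was 0.05 (SE 0.745), and between siPaf1 and siCdc73 it was 0.33 (SE 0.456, adjusted p 0.66). The siPaf1 call held without each of its 4 libraries in turn, at 2.34 to 2.89, also without the library that stood apart (2.58, adjusted p 0.00486). The siCdc73 call did not hold without the siCtrl library of batch 2 (2.01, adjusted p 0.0764). The siCtrl values rest on 6 and 11 reads and did not pass the low-count filter, so Six4 entered the test through the other 5 libraries.

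Where the Six4 reads ended was unusual among the factors. Of 325 reads, 243 were at 6 intron sites and 82 at 3 sites that the deposited table lists as internal exon. In the gene model read here those 3 sites lie in the 3'UTR of exon 3, the last exon, from 2804 to 1526 bases before its annotated end, and no Six4 site was listed as 3'-most exon. The leading site, in intron 1 with ATTAAA in its window, had 2 and 6 reads in siCtrl, 23 and 68 in siPaf1, 4 and 52 in siCdc73, and 4 in siSki8. The leading intron 2 site, with AATAAA, had 3 and 0 reads in siCtrl, 7 and 22 in siPaf1, 6 and 24 in siCdc73, and 2 in siSki8.

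Reads in exon 3 were higher beside those in the introns. Intron sites together took 5 and 6 reads in siCtrl, 31 and 101 in siPaf1, 13 and 80 in siCdc73, and 7 in siSki8, and the exon 3 sites took 1 and 5, then 12 and 32, then 6 and 22, and 4. In both classes each siPaf1 and siCdc73 library was above the siCtrl library of its batch. The added test of site usage found no Six4 site with a called change of its share with or without the block, at these low siCtrl reads, where 7.49% of sites were called after siPaf1, 6.74% after siCdc73 and 0.0476% after siSki8 with it, and 0.0106%, 0.0106% and 0 without it. Six4 is not among the genes of the RNA-seq table, so its coding reads were not analysed here.

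**Figure D4:**
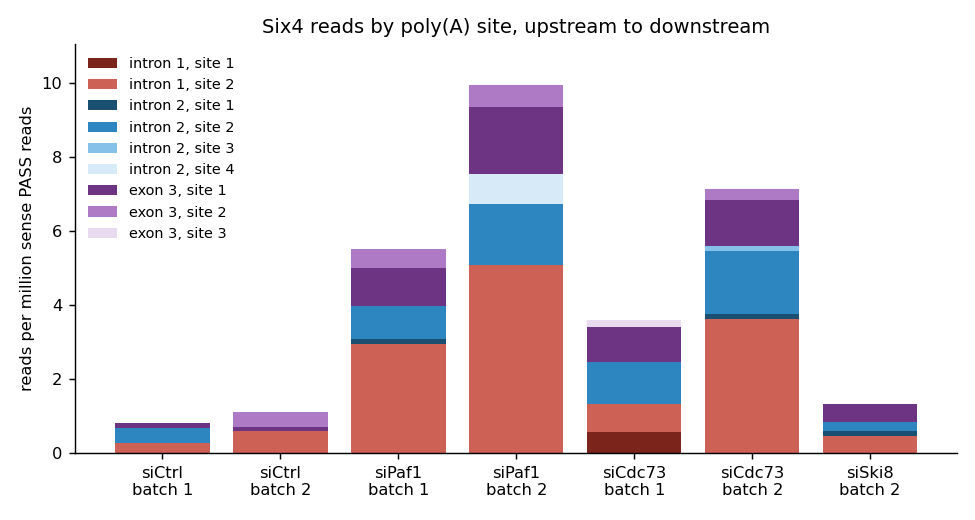
Six4 reads at each of its 9 pA sites, stacked by library from upstream (bottom) to downstream (top) and scaled to the library's sense reads. Intron 1 site 2 is the largest part in both siPaf1 libraries and in the batch 2 libraries of siCtrl and siCdc73, and intron and exon 3 sites are both higher in siPaf1 and siCdc73 than in siCtrl.

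Pax7 (chr4:139292977-139389445, reverse strand) was measured by RNA-seq only. It had 47.5 and 5.89 CPM in siCtrl, 36.8 and 13.3 in siPaf1, 18.1 and 2.87 in siCdc73, and 2.04 in siSki8. The batch 2 values rest on 35 reads in siCtrl, 38 in siPaf1, 9 in siCdc73 and 14 in siSki8. Every batch 1 library lay above every batch 2 library, and siCtrl alone differed between batches by -2.94 on the log2 scale. Within batches siCdc73 was below siCtrl by -1.37 and -0.95 and siSki8 by -1.38, while siPaf1 was lower in batch 1 and higher in batch 2 (-0.37 and 1.13).

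With the block, Pax7 fell by 1.20 (SE 0.365) on the log2 scale after siCdc73, with an adjusted p of 0.00802 against 0.533 without the block. It fell by 1.81 (SE 0.574) after siSki8, with 0.0422 against 0.781, and the siPaf1 difference was 0.23 (SE 0.346). Pax7 was 1.42 (SE 0.381) higher in siPaf1 than in siCdc73, with adjusted p of 0.00481 under the block and 0.661 without it. The siCdc73 call held only without the siCtrl library of batch 2, and the siSki8 call did not hold without the siCtrl library of batch 1 (-1.40, adjusted p 0.224). For siCdc73 the other 3 left-out libraries gave -1.40, -1.10 and -0.46, with adjusted p of 0.0787 and 0.0601 without siCdc73 of batch 1 and of batch 2, and 0.605 without siCtrl of batch 1. The direct comparison did not hold without the siCdc73 library of batch 2 (1.34, adjusted p 0.0501), and the siPaf1 difference became 1.05 (adjusted p 0.0476) without the siPaf1 library of batch 1. The 14 Pax7 reads of 3'READS were all at 3 intron sites, with 2 in siPaf1, 3 and 9 in the siCdc73 libraries and 0 elsewhere.

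**Figure D5:**
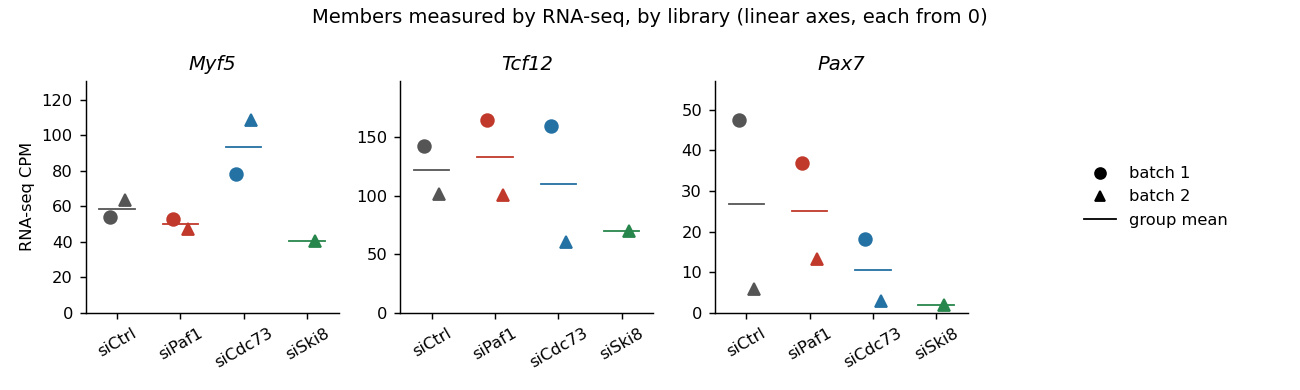
RNA-seq level of Myf5, Tcf12 and Pax7 by library, in CPM on linear axes that start at 0 (circles batch 1, triangles batch 2, bars group means). Both siCdc73 libraries lie above all others for Myf5, and batch 1 lies above batch 2 in each group for Pax7.

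The dimerization partners and cofactors of these factors were a list of 18 genes, 15 tested in 3'READS and 11 in RNA-seq. With the block, 3 were called higher after siPaf1 and 4 after siCdc73 in 3'READS and 0 lower in either, where 9.74% and 10.8% of all genes were called higher and 9.08% and 11.8% lower, with medians of 0.28 and 0.57 for the list against 0.08 and -0.02 over all genes. In RNA-seq 5 were higher after each, with 1 lower after siCdc73, where 16.3% and 19.4% of genes were called higher and 16.2% and 20.5% lower, and the medians were 0.53 and 0.51 against 0.02 and -0.02. The tested genes include Mef2b and Myf6, at 0 and 0.168 CPM and at 0.978 and 0.841 CPM in siCtrl in RNA-seq. These values are under the low-count filter of 1.63 CPM, so both entered only through siPaf1 and siCdc73 libraries in which they were high. In 3'READS both were also under its filter of 1.21 CPM in siCtrl. The list counts and medians are therefore given as a description. Tcf3, which encodes the E proteins E12 and E47, rose by 1.03 (SE 0.274) and 0.93 (SE 0.275) in 3'READS and by 1.21 (SE 0.239) and 1.16 (SE 0.238) in RNA-seq after siPaf1 and siCdc73. Tcf4, another E protein gene, rose by 1.26 (SE 0.247) and 0.76 (SE 0.245) in RNA-seq. Nfix, a factor of fetal muscle, fell by 0.75 on the log2 scale (SE 0.248) after siCdc73 in RNA-seq but rose by 1.17 (SE 0.401) in 3'READS, where it had 4.35 and 4.63 CPM in siCtrl and 9.12 and 11.6 in siCdc73.

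Tead4, a factor that binds muscle gene promoters, rose after every knock-down in 3'READS, by 1.37 (SE 0.354) after siPaf1, 2.59 (SE 0.355) after siCdc73 and 4.54 (SE 0.422) after siSki8, and was the only gene of the list called after siSki8. Myf6, the MRF next to Myf5 in the genome, was singled out after its values were seen. It had 0.978 and 0.841 CPM in siCtrl, 2.88 and 6.63 in siPaf1, 9.44 and 12.1 in siCdc73, and 0.146 in siSki8 in RNA-seq. Its siPaf1 and siCdc73 libraries lay above all others. The siCtrl and siSki8 values were under the low-count filter of 1.63 CPM, so Myf6 entered the test only through the libraries in which it was high, and the fitted 1.89 (SE 0.645) and 3.12 (SE 0.599) with the block are given as a description. In 3'READS Myf6 was at 1.74 CPM or less in every library and no difference was called.

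Of 20 inhibitors of the factors, 18 were tested in 3'READS, and 3 were called higher after siPaf1, 1 after siCdc73 and 0 after siSki8, with none lower, where 9.74%, 10.8% and, in either direction, 0.151% of all genes were called. In RNA-seq 9 were tested, with 3 higher after siPaf1, 1 higher and 1 lower after siCdc73, and 1 lower after siSki8, where 16.3% of genes were higher after siPaf1, 19.4% higher and 20.5% lower after siCdc73, and 5.43% called after siSki8. Id3, whose product sequesters E proteins, rose by 1.17 (SE 0.323) in 3'READS and 1.16 (SE 0.328) in RNA-seq after siPaf1. The RNA-seq difference rested on batch 2, since siPaf1 minus siCtrl was 0.01 in batch 1 and 2.46 in batch 2, where siCtrl itself was 2.21 lower than in batch 1 (198 against 916 CPM), and in 3'READS it was 0.54 and 1.88. After siSki8 the fitted Id3 difference in RNA-seq was -1.74 (SE 0.447), while siSki8 minus siCtrl within batch 2, the only batch with siSki8, was -0.87. Id2, of the same family, rose by 1.15 (SE 0.271) after siCdc73 in 3'READS. Bhlhe40, a bHLH repressor, rose by 1.28 (SE 0.282) in 3'READS and 1.68 (SE 0.239) in RNA-seq after siPaf1. The class IIa histone deacetylase genes Hdac5 and Hdac4, whose products bind MEF2 proteins, differed in opposite directions after siCdc73 in RNA-seq, at 1.08 (SE 0.244) and -0.82 (SE 0.328). The list medians were 0.45 and 0.44 after siPaf1 and siCdc73 in 3'READS, against 0.08 and -0.02 over all genes, and -0.05 and 0.37 in RNA-seq, against 0.02 and -0.02.

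Of 15 coactivators and cell-cycle partners, all tested in 3'READS, 4 were higher and 2 lower after siPaf1 and 3 higher and 4 lower after siCdc73, with 0 called after siSki8. Over all genes 9.74% were higher and 9.08% lower after siPaf1, and 10.8% and 11.8% after siCdc73. The list medians were 0.11 and -0.21 in 3'READS, against 0.08 and -0.02 over all genes. In RNA-seq 7 were tested, with 0 higher and 3 lower after siPaf1, 1 of each after siCdc73, and 0 after siSki8, where 16.3% of genes were higher and 16.2% lower after siPaf1 and 19.4% and 20.5% after siCdc73. Rb1, which encodes the retinoblastoma protein, fell by 2.22 (SE 0.272) on the log2 scale in 3'READS and by 1.61 (SE 0.279) in RNA-seq after siPaf1. Carm1, an arginine methyltransferase gene, fell by 1.14 (SE 0.293) and 1.21 (SE 0.243) on the log2 scale after siCdc73 in the same assays. After siPaf1 Carm1 was lower too, at -0.97 (SE 0.288) in 3'READS and at -0.76 and -0.86 within batches in RNA-seq (log2). Setd7, a lysine methyltransferase gene, fell by 2.05 (SE 0.370) on the log2 scale after siCdc73 in 3'READS, and Cdkn1a, which encodes the cell-cycle inhibitor p21, rose by 1.28 (SE 0.271) in 3'READS and 1.49 (SE 0.262) in RNA-seq.

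Of 28 muscle genes bound by these factors, 26 were tested in 3'READS, and 4 were higher and 2 lower after siPaf1, 1 higher and 3 lower after siCdc73 and 0 called after siSki8, where 9.74% and 9.08% of all genes were higher and lower after siPaf1 and 10.8% and 11.8% after siCdc73. In RNA-seq 15 were tested, with 9 higher and 1 lower after siPaf1, 2 of each after siCdc73 and 0 after siSki8, where 16.3% and 16.2% of genes were higher and lower after siPaf1 and 19.4% and 20.5% after siCdc73. The medians after siPaf1 were 0.55 in 3'READS and 0.81 in RNA-seq, against 0.08 and 0.02 over all genes, and after siCdc73 they were -0.03 and -0.22, against -0.02 in both. Chrng, an acetylcholine receptor subunit gene, rose by 2.02 (SE 0.335) and Acta1, skeletal actin, by 1.61 (SE 0.313) after siPaf1 in 3'READS. Actc1, cardiac actin, rose by 1.98 (SE 0.301) after siPaf1 and fell by 2.73 (SE 0.433) on the log2 scale after siCdc73 in RNA-seq. Myl1, a fast myosin light chain gene, rose after siCdc73 by 2.90 (SE 0.573) in 3'READS and 2.15 (SE 0.338) in RNA-seq. Its 3'READS level in siCtrl was only 0.300 and 1.80 CPM. After siPaf1 Myl1 was also above siCtrl within batches, by 0.51 and 1.75 in 3'READS and 0.78 and 1.48 in RNA-seq (log2). Cdh15, M-cadherin, fell after both, by 1.08 (SE 0.295) and 1.86 (SE 0.307) on the log2 scale in 3'READS. Without the block, edgeR called 0 genes of each of these 4 lists in each comparison. In 3'READS Id4, Hdac7, Hdac9, Cdkn1c and Ckm were under the low-count filter of 1.21 CPM in siCtrl. They entered their lists through other libraries, in which they were higher. Cdkn1c was at 8.78 and 8.86 CPM in siPaf1 and 3.69 and 3.34 in siCdc73, against 0.910 in siSki8. Id4 and Hdac7 passed only in the siPaf1 library of batch 2, at 1.26 CPM each. The counts and medians of the lists with these genes are therefore also given as a description.

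Myotube and myoblast markers differed between libraries beside these values. Per 1000000 sense reads, the 9 myotube markers listed in 3'READS summed to 115 and 273 in siCtrl, 200 and 537 in siPaf1, 77.3 and 291 in siCdc73, and 245 in siSki8. Batch 2 was thus the higher in each group, siPaf1 was above the siCtrl library of its batch in both batches, and siCdc73 was below it in batch 1 and above it in batch 2. The 7 myoblast markers summed to 1942 and 2022 in siCtrl, 2080 and 2188 in siPaf1, 1241 and 912 in siCdc73, and 1475 in siSki8, lowest in the siCdc73 libraries. Des was the largest part of that sum, with 11105 of 14321 reads in siCtrl of batch 1 and 21038 of 29265 in siPaf1 of batch 2. Des was higher in siPaf1 than in siCtrl in both batches. Cdh15, Itga7, Vcam1 and Ncam1 were lower in both, at -1.08, -0.88, -1.06 and -1.03 with the block (log2). Myf5 was higher in batch 1 and lower in batch 2, and Myod1 was not measured. The part of either marker set in the differences was not tested. Markers of other cell types summed to 10 to 63 reads per library in 3'READS and 2 to 15 in RNA-seq, where 1 of the 6 listed, Alb, was at 0.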

How the data were processed

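RNA-seq and 3'READS libraries of C2C12 myoblasts were grouped by siRNA and batch as the labels give them. The authors mapped the reads of both assays to mm9 with Bowtie2 in local mode (version not given in the sources used here), kept unique alignments, and deposited, for rRNA-depleted, strand-specific RNA-seq, raw coding-region counts of each RefSeq transcript beside RPKM values, and raw counts per pA site for 3'READS. RPKM was used only to compare levels per length. The 52 further samples of the series without count tables were not analysed here.

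For RNA-seq the transcript with the highest mean count stood for its gene, and for 3'READS all sense sites of a gene were summed. edgeR 4.0.16 in R 4.3.3 (TMM, its low-count filter, quasi-likelihood test, Benjamini-Hochberg adjustment over all genes tested, call at an adjusted p under 0.05) was fitted to all 7 libraries of an assay without a batch term, since the study's methods use none, and with the batch as a replicate block. The siSki8 library was thereby assumed to vary like the other groups. SE values are the log2 difference without edgeR's prior count of 2, divided by the root of its F value. Printed edgeR differences include that prior count, which shrinks them most at low reads. APA used sites with at least 5% of a gene's reads, genes averaging 20 or more reads, and an isoform by knock-down interaction. DESeq2 1.42.0, Fisher's exact test on pooled reads, other scalings and filters, and leaving out each library were alternatives. Site usage, CDS-APA without a minimum share under the block, and the leave-one-out and DESeq2 fits with the block were added after the data were seen. The edgeR gene-level and 3'UTR-APA fits were also run on simulated data, for siPaf1 against siCtrl only, and the other tests were not. The outcome of those runs is not reported here, so they lend no weight to the calls above. Whether they hold at the low reads of Six4, Mef2c and Mef2d, or with a library that stands apart, was not tested. Python 3.11.15 was used for tables and figures.

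The batch numbers pair the libraries by the labels. The difference between batches correlated between groups across genes with r of 0.620 to 0.748 in RNA-seq and 0.432 to 0.610 in 3'READS, so the blocked value is printed where it changes a call. The biological coefficient of variation was 0.397 without and 0.179 with the block in RNA-seq, and 0.515 and 0.247 in 3'READS.

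The factors and the gene lists were chosen with earlier results of these data known. Named genes were all 9 factors, the 3 siRNA targets, the 2 genes nearest in profile to each measured MRF, and from each list at most 2 genes per direction, assay and knock-down with the smallest blocked adjusted p among those with a mean of at least 50 reads and the same direction in each batch. Exceptions are said to be such. Depth limits Six4, Mef2c and Mef2d most in 3'READS, and Pax7 in batch 2 of RNA-seq. Wilson intervals at 95% cover counting error only. Positions and 30-base windows were read from an mm9 genome and its Gencode annotation.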

Additional observations from a re-analysis of the deposited data

Results flagged for a closer look

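Between siPaf1 and siCdc73, 3 factors differed by a test of the difference itself with the batch as a block (edgeR). The same test called 14.4% of all genes in 3'READS and 28.2% in RNA-seq. As given above, each of the 3 calls ended without the siCdc73 library of batch 2. Myog was 1.22 higher in siPaf1 on the log2 scale in 3'READS, Pax7 was 1.42 higher in siPaf1 in RNA-seq, and Myf5 differed by -0.87 in RNA-seq, lower in siPaf1. Without the block the values were 1.17, 1.20 and -0.90, with adjusted p of 0.498, 0.661 and 0.353, and none was called. Both knock-downs of each factor were compared within the same 2 batches.

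Upstream antisense sites of the factors, which are in no comparison of the report, held reads in every knock-down library above the siCtrl libraries. They numbered 0 and 1 in siCtrl, 7 and 12 in siPaf1, 4 and 18 in siCdc73, and 4 in siSki8, from libraries of 5302728 to 14340927 pA site reads. Per 1000000 pA site reads this is 0 (allowing up to 0.406, 3 reads, from counting error alone) and 0.102 in siCtrl, against 0.482 to 1.26 in the knock-downs. The 46 reads came from 8 sites, with 18 at Myf5, 15 at Myod1 and 13 at Mef2d, and they were not tested gene by gene. Of the 4 siSki8 reads, 3 were at 1 Mef2d site, and 1 siCtrl library had 1 read. Counts this low do not set siSki8 apart from siCtrl. Across genes, and measured against sense transcripts, the paper reported more upstream antisense RNA after loss of Paf1 or Cdc73 but not of Ski8.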

How the results depend on the processing

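With no batch term 0 factors were called in each comparison, and 3 of the alternatives gave calls. In 3'READS, DESeq2 called 2 after siCdc73 and 1 after siPaf1, and Fisher's exact test on pooled reads called 6 after siCdc73, 5 after siPaf1 and 3 after siSki8, where it called 52.5%, 53.4% and 35.8% of all genes. The replicate block called 4 after siCdc73, 1 after siPaf1 and 1 between siPaf1 and siCdc73, and with the siPaf1 library of batch 2 also left out it called 2 after siPaf1 and 2 between them. In RNA-seq the replicate block called 2 after siCdc73, 2 between siPaf1 and siCdc73 and 1 after siSki8, and Fisher's test called 1 after siCdc73 and 3 after siSki8, where it called 53.5% and 48.4% of genes. For 3'UTR-APA Fisher's test called 2 after siCdc73, 1 after siPaf1 and 2 between them, where it called 43.6%, 49.7% and 41.5% of genes, and the block changed no call. For site usage the replicate block called 1 site after siPaf1 and 1 between siPaf1 and siCdc73, where it called 7.49% and 2.23% of sites. Over all genes in 3'READS the block called 22.5% after siCdc73, 18.8% after siPaf1 and 14.4% between them. In RNA-seq it called 39.9% after siCdc73, 28.2% between siPaf1 and siCdc73 and 5.43% after siSki8. DESeq2 without the batch called 5.67% of 3'READS genes after siCdc73 and 3.92% after siPaf1. The cause of these changes was not tested.

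With the block, DESeq2 called 3 factors after siCdc73 in 3'READS where edgeR called 4, without Mef2a (1.38, adjusted p 0.122), and it called 20.0% of all genes. DESeq2 called 0 factors between siPaf1 and siCdc73 in 3'READS, where it called 11.8% of genes. It called 0 after siSki8 in RNA-seq, where it called 3.91% of genes. In each of these 2 comparisons edgeR called 1. Leaving out 1 library each under the block gave 1 to 4 calls after siCdc73, 1 to 2 after siPaf1, 0 to 1 after siSki8 and 0 to 2 between siPaf1 and siCdc73 in 3'READS, and 0 to 1, 0 to 1, 0 to 1 and 0 to 2 in RNA-seq. Over all genes the same fits called 11.1% to 15.8%, 6.24% to 24.3%, 0.551% to 0.906% and 5.38% to 21.0% in 3'READS, and 18.6% to 25.2%, 13.3% to 36.3%, 1.85% to 2.48% and 7.31% to 33.6% in RNA-seq.

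Of 346 values of single factors under the other settings, 304 kept their side of the threshold and did not change sign by more than their SE, 41 passed it and 1 reversed: Mef2a between siPaf1 and siCdc73 was 0.47 with the block and without the siPaf1 library of batch 2. Of 182 values that left out 1 library without the block, 14 reversed. In 3'READS the ranges were -0.54 to 0.60 for Mef2a between siPaf1 and siCdc73. For Mef2c they were -1.89 to 2.04 after siCdc73, -2.40 to 1.53 after siPaf1 and -1.58 to 2.35 after siSki8, each reversed without the siCtrl library of batch 2. For Myf5 they were -0.58 to 1.6 after siCdc73 and -1.23 to 0.55 after siPaf1, and for Tcf12 -0.82 to 0.56 after siCdc73 and -0.70 to 0.66 between siPaf1 and siCdc73. For 3'UTR-APA of Mef2a they were -2.36 to 1.39 after siPaf1 and -2.03 to 1.71 between siPaf1 and siCdc73. In RNA-seq they were -3.03 to 0.85 for Pax7 after siCdc73 and -0.98 to 2.04 after siPaf1, and -0.96 to 0.39 for Tcf12 after siCdc73 and -0.26 to 1.10 between siPaf1 and siCdc73.

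Scaling by library size alone moved the median of all genes after siSki8 in RNA-seq from -0.02 to -0.35 and between siPaf1 and siCdc73 in 3'READS from 0.05 to 0.23, and no factor's call changed. CDS-APA gave no value at the planned minimum share. The low reads of Six4, Mef2c and Mef2d in siCtrl limit their differences.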
